A study of Mus musculus with 6 samples.

Results

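The 10 genes described here, Nqo1, Srxn1, Gclm, Gsr, Slc7a11, Prdx1, Pgd, Taldo1, G6pdx and Gstm1, encode enzymes and a transporter that keep thiols reduced in the cell and supply the NADPH this takes. They were chosen by gene name, and each has 1 locus among the 7171 loci of the deposited table. Together they account for 15 named transcripts, and 1 unnamed transcript lies at the Taldo1 locus, out of 15113 transcripts in all. RNA was sequenced from C17.2, an immortalised mouse neural stem and progenitor line of CD1 x C57BL/6 origin, so all groups come from a single line. Control cells were grown in DMEM/F12 with 10% fetal bovine serum. The second group was treated with heme. The third was cultured for neural induction in Knockout DMEM with GlutaMAX, the N2 supplement and BDNF, a neurotrophin, at 10 ng/ml. The sources used here give no heme dose, no duration for either treatment and no medium for the heme group.

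NRF2, encoded by Nfe2l2, is a transcription factor that KEAP1 marks for degradation in unstressed cells. Oxidants and electrophiles release it, and with small MAF proteins it binds antioxidant response elements near genes of glutathione and thioredoxin metabolism, quinone reduction and the pentose phosphate pathway. The pentose phosphate pathway makes NADPH, which glutathione reductase and thioredoxin reductase use to regenerate their substrates. Free heme is a source of oxidants in neural tissue, and heme oxygenase 1 (Hmox1), which degrades it, is another NRF2 target. Slc7a11 also responds to ATF4, a factor of the amino acid stress response.

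The labels give 2 replicates per group, but the columns for heme hold 1 set of measurements. Every member transcript in the heme replicate 2 column stood at 1.255 to 1.47 times its replicate 1 value, and over all transcripts the factor lay between 1.25 and 1.5. The heme pair was therefore counted as 1 sample, with the replicate 1 column, so heme values have no replicate of their own. Levels are in FPKM, fragment abundance scaled to transcript length and library depth, and a locus value adds up its listed transcripts. Mapped sequence amounted to 4.14 to 4.56 gigabases in each of these 5 libraries. Of the lists of cell type markers, 3 of 8 progenitor genes are listed, with Nes at 108 to 132 FPKM, Sox2 at 13.6 to 19.8 and Vim at 663 to 798. Of the neuronal list 2 of 8 are listed, of the oligodendrocyte list 2 of 6, and of the astrocyte, erythroid and immune lists 0 of 6, 0 of 8 and 0 of 6. Of the mesenchymal list 6 of 7 are listed, and their sum reached 3437 to 4402 FPKM, against 809 to 949 for the 3 progenitor genes. Control replicate 2 was the lowest for both sums. Most of the progenitor sum is Vim, and Nes, at 132 FPKM in both controls, was not lowest in that library. The replicates are called biological, but nothing says that they were separate cultures, so p-values measure only the spread between these libraries, which may be technical. In bulk RNA, fewer cells of a type and less RNA per cell cannot be told apart.

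Promoter sequence was read for the members because a shared element is the usual description of this gene group. RefSeq windows of 250 bases before to 50 bases after the start (GRCm38.p6) were found for 9 of the 10 genes. The core of the antioxidant response element, written TGACNNNGC, was searched on both strands. It was present in a window of 5 of these 9 genes, Gclm, Prdx1, Srxn1, Pgd and G6pdx, against 14.0% of 27025 genes. By window, 5 of 11 member windows held it, against 12.4% of all 32851 windows of this length. Pgd also has a window, 149166656 to 149166955 on chromosome 4, without a match. The Srxn1 and Pgd matches lay after the start. The G6pdx window, 74428831 to 74429130 on chromosome X, lies inside a listed G6pdx transcript that spans 74409483 to 74429194. The stretch around the G6pdx match overlaps an annotated exon and is not shown. The Nqo1, Gstm1, Taldo1 and Slc7a11 windows held no match to this core, which says only that these letters are not in those windows. The element TGATGCAA, a C/EBP-ATF element, was present at Slc7a11 alone among the 9 genes and in 0.895% of all windows. It occurred there once on each strand, the first copy on the gene's strand and the second as TTGCATCA. The stretches before the start that hold the matches at Gclm, Prdx1 and Slc7a11 are shown 5′ to 3′ on the gene's strand with the match in capitals. At Gclm and Prdx1 the capitals are the reverse complement of TGACNNNGC. The Gclm stretch is at chr3:122245393-122245461 (plus strand), the Prdx1 stretch at chr4:116685436-116685504 (plus strand) and the Slc7a11 stretch at chr3:50443623-50443709 (minus strand).
Gclm: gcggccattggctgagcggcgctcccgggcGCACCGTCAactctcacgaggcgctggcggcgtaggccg
Prdx1: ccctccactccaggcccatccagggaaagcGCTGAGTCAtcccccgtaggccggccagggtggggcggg
Slc7a11: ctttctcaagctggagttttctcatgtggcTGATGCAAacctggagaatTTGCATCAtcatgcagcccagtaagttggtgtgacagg
A match is a description of the letters and not a measured binding site.

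All 10 genes were expressed, and their levels spanned a wide range. Mean FPKM over the 5 libraries was 194 for Prdx1, 112 for Pgd, 94.5 for Taldo1, 63.8 for G6pdx, 35.9 for Gstm1, 31.7 for Gsr, 21.5 for Srxn1, 11.9 for Gclm, 11.1 for Nqo1 and 4.003 for Slc7a11. The ranges of neighbours in this order overlapped except between Taldo1 and G6pdx, between G6pdx and Gstm1, and between Nqo1 and Slc7a11. Prdx1 and the pentose phosphate enzymes were thus the more abundant members, and the cystine importer the least. Of 43 GENCODE M21 transcripts of these genes, 28 are not in the table, so a sum does not hold reads given to those.

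The first group of members makes and uses glutathione. Slc7a11 (MSTRG.12289, chromosome 3, 50364938 to 50443611, GRCm38) is the light chain of the cystine/glutamate exchanger, which imports cystine for glutathione. It was at 3.90 and 5.74 FPKM in control replicates 1 and 2, 4.07 in the heme library, and 4.64 and 1.67 in induction replicates 1 and 2. The induction replicates were thus on either side of control replicate 1, and induction replicate 2 was the lowest library. Coverage of the transcript was 6.94 per base there against 17.3 to 24.96 in the others, the thinnest of the 10 principal transcripts.

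Gclm (chromosome 3, 122245557 to 122270732) is the modifier subunit of glutamate-cysteine ligase, the first enzyme of glutathione synthesis. It was at 7.45 and 17.8 FPKM in the controls, 9.60 in the heme library, and 9.88 and 14.6 after induction. The controls enclosed all other libraries. Part of its exons is shared with a gene on the other strand (Gm17494, 296 bases) and with a processed pseudogene (Gm6061, 244 bases), and the sources used here do not say whether the libraries kept strand.

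Gsr (chromosome 8, 33653238 to 33698163), glutathione reductase, returns oxidised glutathione to its reduced form with NADPH. It was at 26.8 and 46.4 FPKM in the controls, 27.0 in the heme library, and 30.1 and 28.3 after induction. The 4 libraries other than control replicate 2 lay within 1.12-fold of each other.

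Gstm1 (chromosome 3, 108012255 to 108017973), a glutathione S-transferase that conjugates glutathione to electrophiles, was at 32.4 and 39.2 FPKM in the controls, 33.6 in the heme library, and 40.9 and 33.3 after induction. On this scale it was the only member whose highest library was not control replicate 2. Scaled for depth but not divided by transcript length, Gstm1 was highest in control replicate 2 as well, at 45.0 against 42.4 and 42.6 after induction. Gstm genes are a family of close copies, so its reads may be divided among them.

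The second group reduces peroxides and quinones. Prdx1 (chromosome 4, 116685544 to 116700822), a peroxiredoxin that reduces hydrogen peroxide, was at 145 and 242 FPKM in the controls, 228 in the heme library, and 205 and 148 after induction. The heme library came close to control replicate 2 here, and rested in part on a second transcript described with the isoforms.

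Srxn1 (chromosome 2, 152105524 to 152111376), sulfiredoxin, repairs overoxidised peroxiredoxins. It was at 16.1 and 40.6 FPKM in the controls, 15.0 in the heme library, and 19.1 and 16.6 after induction. Control replicate 2 was 2.49 times the median of the other 4 libraries, the largest such ratio among the 10 genes.

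Nqo1 (chromosome 8, 107388225 to 107403206), a quinone reductase and a standard reporter of NRF2 activity, was at 8.02 and 19.6 FPKM in the controls, 8.40 in the heme library, and 10.9 and 8.68 after induction. Control replicate 2 was again far above the other libraries, at 2.29 times their median.

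The third group carries the pentose phosphate pathway. G6pdx (chromosome X, 74409483 to 74429194), glucose-6-phosphate dehydrogenase, makes the first NADPH of the pathway. It was at 61.3 and 72.4 FPKM in the controls, 60.4 in the heme library, and 63.8 and 61.0 after induction, the narrowest spread of the 10 genes. Its exons share 418 bases with those of Ikbkg on the other strand.

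Pgd (chromosome 4, 149149991 to 149166771), 6-phosphogluconate dehydrogenase, makes the next NADPH. It was at 95.02 and 160.5 FPKM in the controls, 93.8 in the heme library, and 110.4 and 98.3 after induction. Control replicate 2 was 1.66 times the median of the others, against 1.18 times for G6pdx.

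Taldo1 (chromosome 7, 141392199 to 141402968), transaldolase, joins the pathway back to glycolysis. It was at 85.0 and 116 FPKM in the controls, 87.0 in the heme library, and 91.5 and 93.0 after induction. The 4 libraries other than control replicate 2 lay within 1.09-fold of each other.

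**Figure D1:**
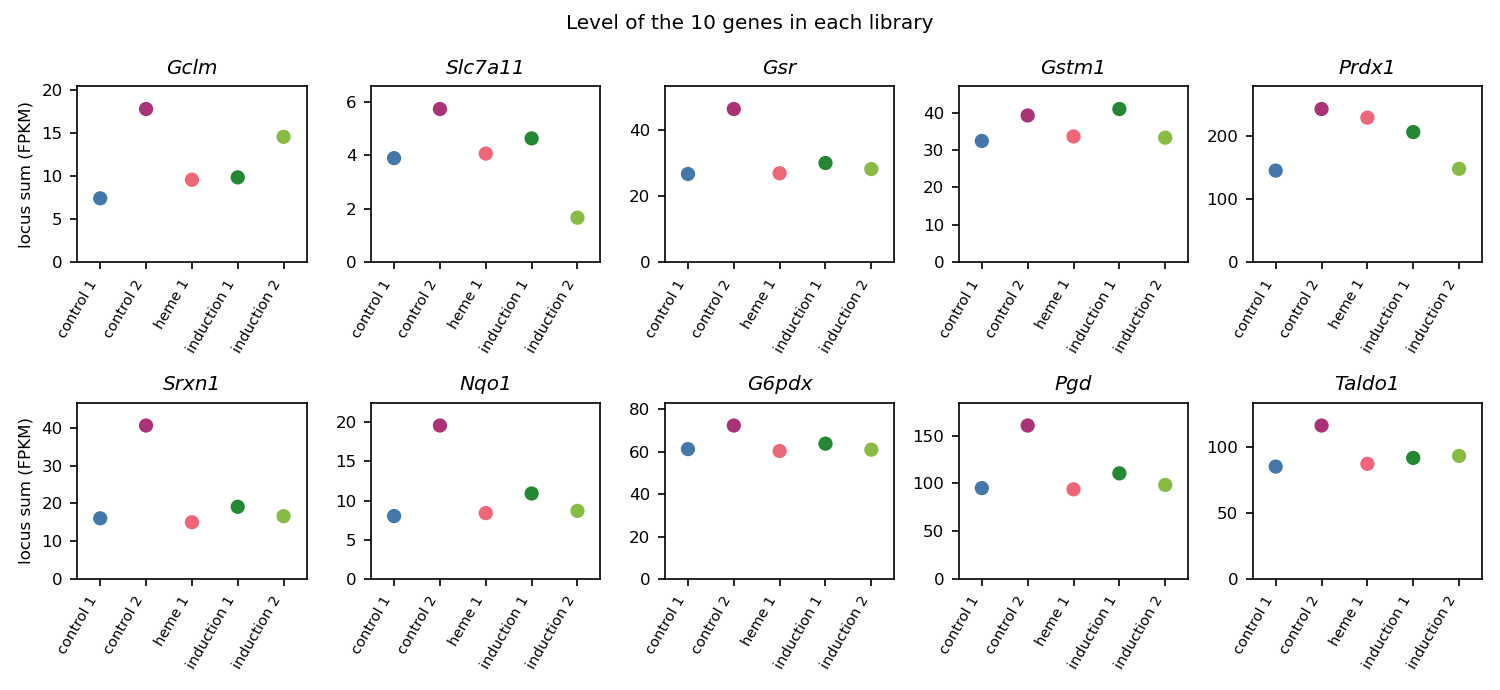
Locus sums in FPKM (vertical axes, from 0) of the 10 genes in the 5 libraries (horizontal axes), with 1 point per library. Control replicate 2 is the highest point in 9 of the 10 panels, and the exception on this scale is Gstm1.

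By FPKM sum, control replicate 2 was the highest of the 5 libraries for 9 of the 10 genes, where 28.2% of 7039 loci were highest in that library. It was above 1.5 times the median of the other 4 for 5 of them, Srxn1, Nqo1, Gclm, Gsr and Pgd, against 7.2% of all loci. It was the lowest library for 0 members, against 32.3% of all loci. Control replicate 1 was lowest for 6 members (17.3% of all loci) and highest for 0 (18.5%), and the heme library was lowest for 3 (19.7%). In control replicate 2 the median ratio over the 10 genes was 1.55, with a range of 1.17 (Gstm1) to 2.49 (Srxn1). The median ratio of all loci in that library was 0.988. In the other libraries the median over the 10 genes lay between 0.897 (control replicate 1) and 1.12 (induction replicate 1). All 10 genes were below the median of the others in control replicate 1. The members were chosen with the pattern of control replicate 2 known, so the counts describe single libraries and support no statement about a condition.

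**Figure D2:**
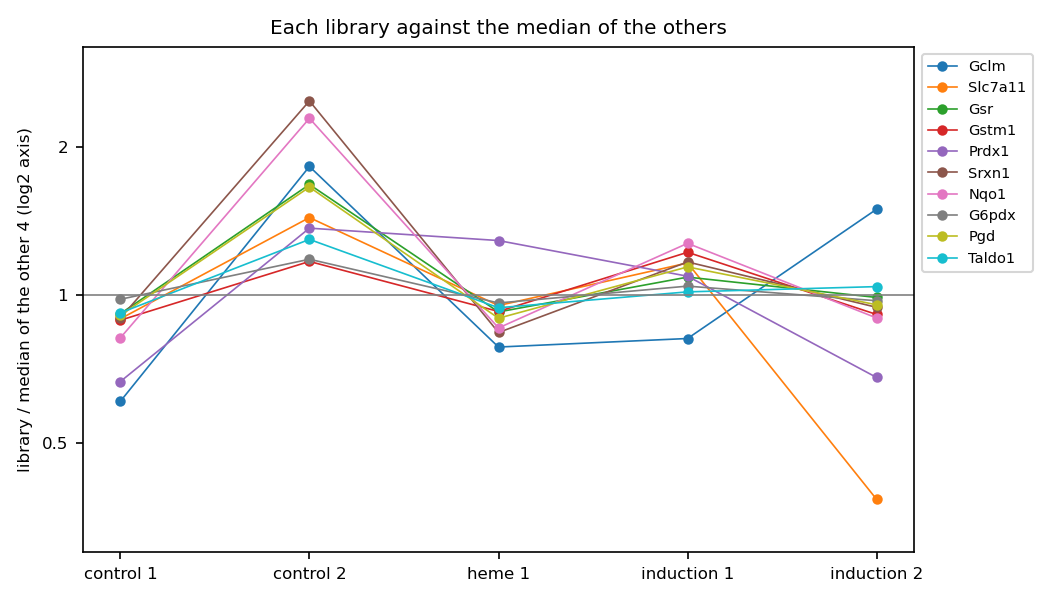
Each library's locus sum divided by the median of the other 4 libraries (vertical axis, log2 scale) for the 10 genes. Lines only link the points of a gene, and control replicate 2 lies between 1.17 and 2.49 while Slc7a11 in induction replicate 2 is the lowest point at 0.385.

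Other measures moved in the same library. Hmox1 was at 222 FPKM in control replicate 2 against 43.7 to 79.4 in the other 4. Mt1, a metallothionein, was at 186 against 43.9 to 54.5, and the p53 targets Mdm2 and Cdkn1a were at 169 against 84.9 to 93.1 and at 62.1 against 30.03 to 33.4. The proliferation marker Mki67 was at 15.7 against 28.2 to 33.8. These 4 belong to a list of 10 stress and growth genes, of which 5 were highest in control replicate 2 and 4 were over 1.5 times the median of the others. The part of these differences in the levels of the 10 genes was not tested.

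The first comparison asked whether the genes respond to heme. None of the 10 passed at an adjusted p of 0.05 in limma, fitted to log2(FPKM + 1) over all loci, and 0 had an unadjusted p below 0.05. Of 7039 loci, 0.0426% passed. The heme library lay between the controls for 7 genes and below both for Srxn1, Pgd and G6pdx, against 31.1% of all loci below both. It was above both controls for 0 genes, against 25.5% of all loci. The log2 difference was positive for 1 of 10, against 49.2% of all loci, and its median was -0.22, where the median of all loci was -0.0035. With the mean of the heme columns in place of replicate 1, it was positive for Prdx1 (0.51), Gstm1 (0.17), G6pdx (0.12), Taldo1 (0.071) and Slc7a11 (0.0023). The replicate 2 column is 1.25 to 1.5 times replicate 1, so that mean raises every heme value above 0 by construction. Not divided by transcript length, G6pdx in the heme library lay between the controls.

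Srxn1 had the smallest p of the members in this comparison, with a log2 difference of -0.73 ± 0.55 (SE, adjusted p = 0.998 in limma). The difference was -0.53 ± 0.53 for Nqo1, -0.39 ± 0.32 for Pgd, -0.37 ± 0.33 for Gsr and -0.25 ± 0.54 for Gclm. The remaining values were -0.19 ± 0.20 for Taldo1, -0.18 ± 0.57 for Slc7a11, -0.14 ± 0.13 for G6pdx, -0.083 ± 0.19 for Gstm1 and 0.28 ± 0.37 for Prdx1. These values depend on control replicate 2. Without it, the heme library differed from the single remaining control by 0.060 for Nqo1, -0.091 for Srxn1, 0.33 for Gclm, 0.012 for Gsr and 0.049 for Slc7a11. The values were 0.65 for Prdx1, -0.019 for Pgd, 0.034 for Taldo1, -0.021 for G6pdx and 0.051 for Gstm1. In that fit only the induction pair supplies a spread, and 0 of 6985 loci passed in limma (414 at an unadjusted p below 0.05), so the values are given as a description. The sign turned for Nqo1, Gclm, Gsr, Slc7a11, Taldo1 and Gstm1.

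Neural induction was compared with control in the same way. None of the 10 genes passed, 0 had an unadjusted p below 0.05, and 0.0142% of loci passed. Control means were 28.3 ± 17.4 FPKM for Srxn1 and 13.8 ± 8.17 for Nqo1 (SD, n = 2), and induction means were 17.9 ± 1.76 and 9.79 ± 1.57. For Pgd they were 128 ± 46.3 and 104 ± 8.58, and for Gsr 36.6 ± 13.9 and 29.2 ± 1.29. The spread of the controls exceeded the difference of the means in each of these genes. No gene had both induction libraries above both controls (18.2% of all loci did) or both below (13% did).

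The log2 difference of induction from control was largest in size for Slc7a11, at -0.57 ± 0.46 (SE). That value rests on induction replicate 2, since it was -0.027 without that library and -1.10 without induction replicate 1. It was -0.50 ± 0.45 for Srxn1, -0.34 ± 0.43 for Nqo1, -0.27 ± 0.27 for Gsr and -0.24 ± 0.26 for Pgd. It was -0.11 ± 0.16 for Taldo1, -0.10 ± 0.30 for Prdx1, -0.093 ± 0.11 for G6pdx, 0.047 ± 0.44 for Gclm and 0.049 ± 0.15 for Gstm1. Without control replicate 2 the sign was positive for all but Slc7a11, at 0.25 for Nqo1, 0.14 for Srxn1, 0.62 for Gclm, 0.12 for Gsr, 0.26 for Prdx1, 0.13 for Pgd, 0.12 for Taldo1, 0.026 for G6pdx and 0.18 for Gstm1. Slc7a11 was then at -0.34. Without control replicate 1 instead, all 10 genes had negative differences in both comparisons, at -1.38 for Srxn1 and -1.13 for Nqo1 with heme and -1.14 and -0.94 with induction. Control replicate 1, the sole control when replicate 2 is left out, was the lowest of the 5 libraries for 6 of the 10 genes.

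Heme and induction share the same controls, so their values against control are not independent. Compared directly, 0 of 10 genes passed and 0 had an unadjusted p below 0.05, where 0.0568% of loci passed. By FPKM sum, the heme library was below both induction libraries for 7 genes, against 40.3% of all loci, and above both for Prdx1, against 27.3%. Not divided by transcript length, Prdx1 in the heme library lay between the induction libraries, at 409 against 471 and 334. G6pdx, below both by FPKM sum, also lay between them on that scale, at 159 against 163 and 156.

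**Figure D3:**
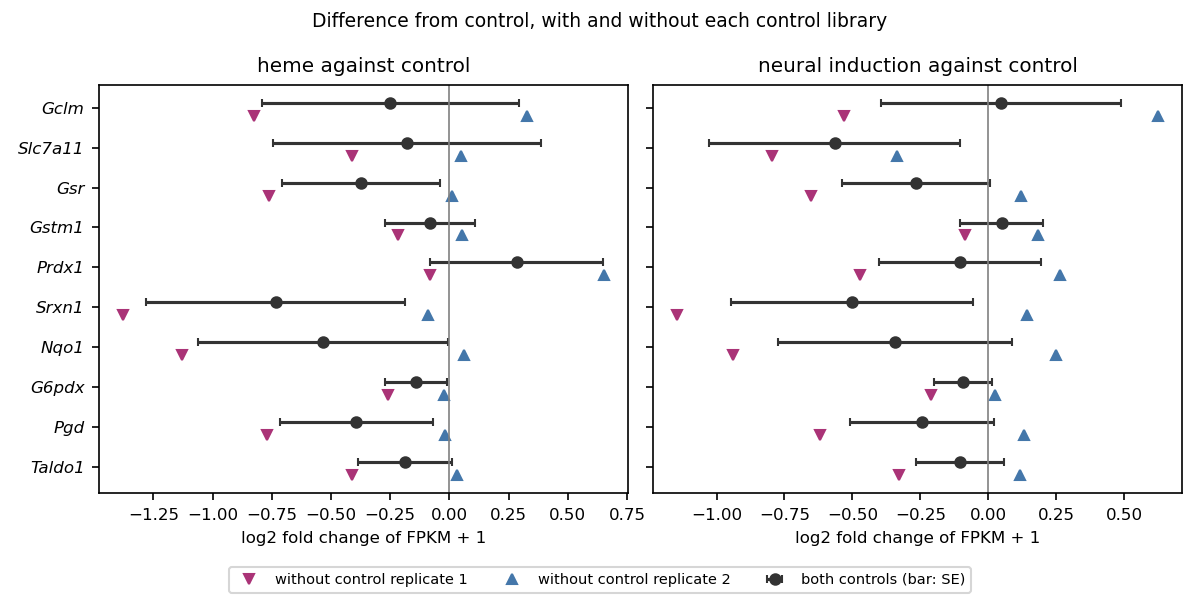
Log2 differences of log2(FPKM + 1) with limma standard errors for the 10 genes, for heme against control and for neural induction against control, with both controls (circles, bars are SE) and without control replicate 1 or 2 (triangles). Without control replicate 1 every value lies below 0, and without control replicate 2 most lie above 0.

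The 10 loci differ in how many transcripts they list, 5 with 1 and 5 with more. Of 15 transcripts tested, 14 named and 1 unnamed, 0 passed in any of the 3 comparisons, where 0.0728% of transcripts passed for heme against control, 0.00728% for induction against control and 0.0801% for heme against induction. Unadjusted p-values below 0.05 occurred for 2, 0 and 2 of the 15, and for 680, 684 and 682 of all 13737 transcripts tested. They belonged to 1 transcript each of Prdx1 and G6pdx.

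The short Prdx1 transcript ENSMUST00000151129 (chromosome 4, 116685599 to 116693842, 5 exons) lacks the 3′ end and shares 95.3% of its bases with the principal transcript. It was at 0 and 2.91 FPKM in the controls, 68.2 in the heme library, and 0 and 2.56 after induction. It held 29.9% of the Prdx1 sum in the heme library. The heme difference was 5.13 ± 1.30 on the log2 scale against control (adjusted p = 0.756 in limma) and 5.20 ± 1.30 against induction (adjusted p = 0.693). In the authors' deposited table for heme, its log2 fold change was 9.08, and its p, adjusted here by Benjamini-Hochberg, was 2.95e-19. The fold changes in the authors' deposited tables lay within 0.028 of the ratio of the replicate 1 columns for the 10 principal transcripts, so they compare single libraries. The principal transcript, ENSMUST00000135573, was at 145 and 239 FPKM in the controls, 160 in the heme library, and 205 and 145 after induction. On a scale that is adjusted for depth but not divided by transcript length, the Prdx1 locus was at 332 and 549.7 in the controls, 409 in the heme library, and 471 and 334 after induction. The heme value lay between the controls on both scales, and the log2 difference was -0.065 on the second.

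For G6pdx, the incomplete transcript ENSMUST00000143521 shares 99.8% of its bases with the principal one. It was at 4.25 and 5.34 FPKM in the controls, 0.688 in the heme library, and 4.70 and 4.09 after induction. The heme library was below the other 4. The log2 difference was -1.77 ± 0.57 against control (adjusted p = 0.927 in limma) and -1.67 ± 0.57 against induction (adjusted p = 0.953). It held 1.14% of the locus in the heme library and 6.71% to 7.38% elsewhere. Reads of such similar transcripts are divided by the authors' assembler, and the G6pd2 retrogene is a further near copy, so the split is uncertain.

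Gstm1 has 3 listed transcripts. The principal one, ENSMUST00000004140, was at 27.6 and 31.1 FPKM in the controls, 28.9 in the heme library, and 20.6 and 32.8 after induction. ENSMUST00000153314, an incomplete transcript sharing 88.1% of its bases with it, was at 13.0 FPKM in induction replicate 1 and at no more than 0.153 in the other 4 libraries. It held 31.9% of the locus in that library, where the principal transcript held 50.2%. The high Gstm1 sum of induction replicate 1 thus came with this transcript. It did not pass the filter on low values. In the authors' deposited table for induction its log2 fold change was 6.71. The third transcript, ENSMUST00000198532, a processed transcript of 2 exons, was at 4.86 and 7.96 FPKM in the controls, 4.68 in the heme library, and 7.33 and 0.403 after induction.

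The remaining split loci are Pgd and Taldo1. The Pgd retained-intron transcript ENSMUST00000156120 was at 0.816 and 3.52 FPKM in the controls, 1.41 in the heme library, and 1.76 and 1.69 after induction. The unnamed Taldo1 transcript, chromosome 7, 141395548 to 141402968, was at 0.0131 and 12.2 FPKM in the controls, 6.17 in the heme library, and 5.25 and 8.56 after induction. Both were highest in control replicate 2 and lowest in control replicate 1.

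**Figure D4:**
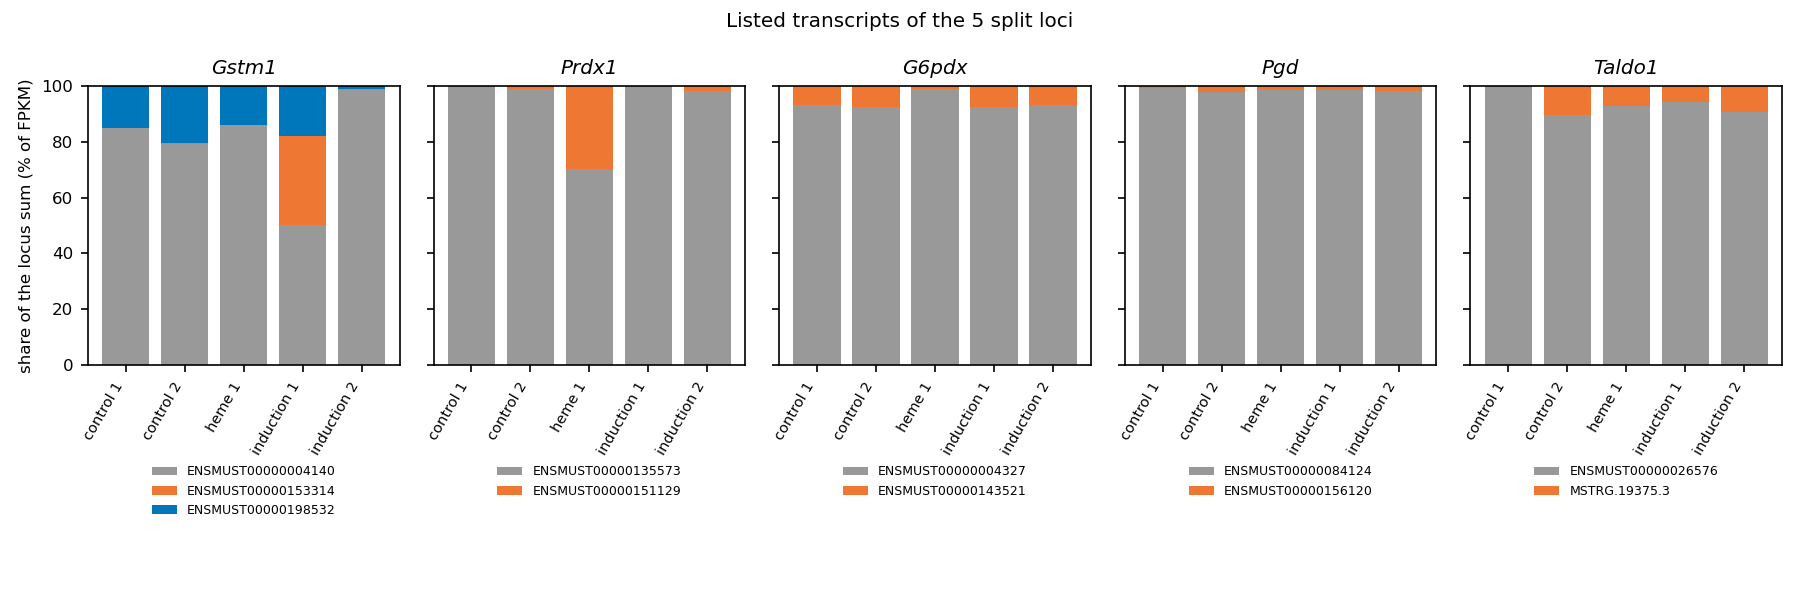
Shares of the locus sum, in percent, held by each listed transcript of the loci with more than 1 listed transcript, in the 5 libraries. The short Prdx1 transcript reaches 29.9% in the heme library, and the incomplete Gstm1 transcript 31.9% in induction replicate 1.

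Other genes of the pathway were taken from 7 lists. In none of them did a gene pass in limma in any of the 3 comparisons. Of the NRF2 regulators, 8 of 13 are listed, and control replicate 2 was highest for 5 of 8 with a median ratio of 1.31. Nfe2l2 itself was at 48.1 FPKM in that library against 45.1 to 48.0 in the others. Sqstm1, which binds KEAP1, was at 321 against 155 to 176, and the small MAF genes Maff and Mafk were at 15.96 against 6.74 to 10.01 and at 30.4 against 22.2 to 25.4. Keap1 lay inside the range of the others, at 3.07 against 1.59 to 4.68. Nfe2l1, of the same list, was lowest in control replicate 2, at 52.2 against 65.4 to 70.7. Beside the regulators, the glutathione list had 7 of 16 loci highest in control replicate 2 (median ratio 1.05). Gclc, the catalytic partner of Gclm, was at 43.7 against 24.6 to 27.9, and Gss, the next enzyme of synthesis, at 11.5 against 6.54 to 7.53. Mgst3, of the same list, was lowest in that library, at 6.02 against 7.85 to 8.97.

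The thioredoxin and peroxiredoxin list had 8 of 14 loci highest in control replicate 2 (median ratio 1.16). Txnrd1, which reduces thioredoxin with NADPH, was at 258 FPKM against 149 to 179. Of the NADPH supply list, 5 of 15 were highest there (median ratio 1.03), and Idh1 was lower, at 10.2 against 15.7 to 20.1. The list of other NRF2 targets had 12 of 20 highest there (median ratio 1.14), among them Blvrb, a biliverdin reductase, at 16.9 against 6.16 to 6.70. The superoxide and catalase list had 3 of 6 (median ratio 0.974), with Sod1, a superoxide dismutase, at 403 against 322 to 358. The ATF4 target list had 6 of 21 (median ratio 1.01), close to the 28.2% of all loci.

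Against control, the heme medians of these lists lay between -0.14 for the thioredoxin and peroxiredoxin list and 0.0045 for the superoxide and catalase list, and the induction medians between -0.31 for the NRF2 regulators and 0.059 for the ATF4 targets. The smallest p for heme was that of Sesn3, a sestrin, at 3.44 FPKM against 15.6 and 9.68 in the controls (log2 difference -1.59 ± 0.32, adjusted p = 0.761 in limma). Pgls, the lactonase between G6pdx and Pgd, was at 33.2 against 17.4 and 16.4 (0.93 ± 0.20, adjusted p = 0.787 in limma). For induction, Idh2, a mitochondrial NADPH source, was at 78.0 and 78.2 against 94.7 and 93.3 (-0.26 ± 0.066, adjusted p = 0.935 in limma). Not divided by transcript length, Idh2 was at 130.9 and 132.9 after induction against 136 and 125 in the controls, and the groups overlapped.

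**Figure D5:**
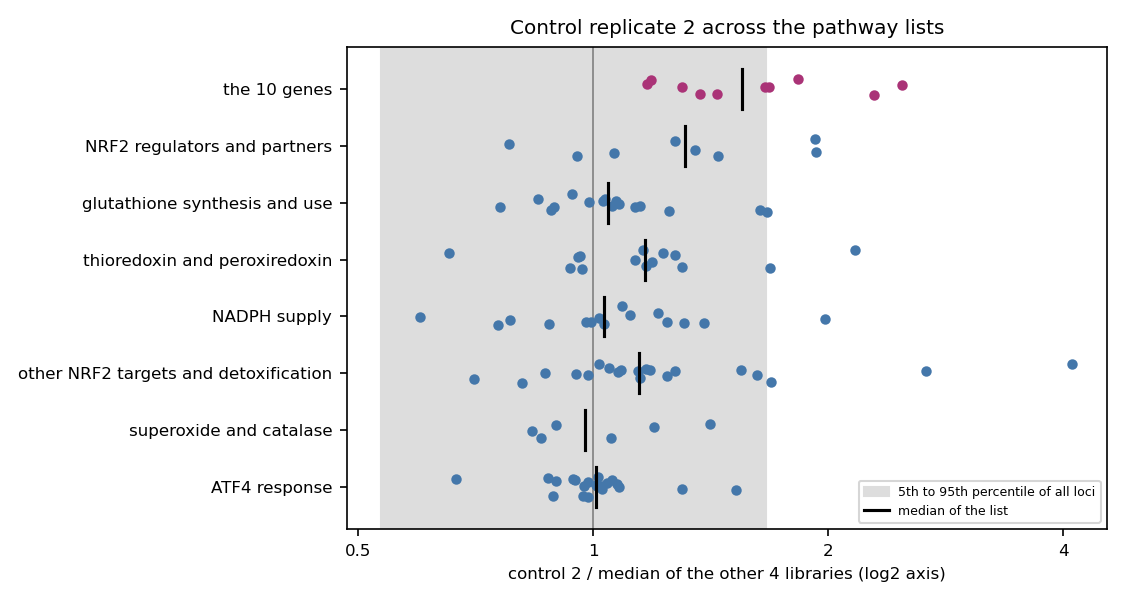
Control replicate 2 divided by the median of the other 4 libraries (log2 scale) for the genes of each pathway list, with 1 point per locus, a bar at the list median and a grey band from the 5th to the 95th percentile of all loci. The 10 genes have the highest median, 1.55, followed by the NRF2 regulators at 1.31, and the superoxide and catalase list has the lowest, 0.974. The 10 genes were chosen with the pattern of control replicate 2 known, so this order is only a description.

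The profiles most like the median profile of the 10 genes were found by the root mean square difference of centred log2(FPKM + 1) over the 5 libraries, among 5553 loci. The closest were Rrm2 (0.0263), a ribonucleotide reductase subunit, Txnrd1 (0.0369) and Gclc (0.0434). They were followed by Higd1a (0.0469), Hspa1b (0.0490), a heat shock protein, and Tcf19 (0.0510). Among the members themselves Pgd (0.0333) and Gsr (0.0367) were nearest to that profile and Slc7a11 (0.361) farthest. Rrm2 was at 75.8 FPKM in control replicate 2 against 45.6 to 52.9 in the other libraries.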

How the data were processed

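RNA was sequenced in 3 groups of C17.2 cells. The authors deposited FPKM values and per-base coverage for each transcript and sample, made with HISAT2, StringTie and edgeR on GRCm38/mm10 per the submitters' processing notes. Tool versions, and the rule by which transcripts were listed, are not stated in these sources. The authors' deposited comparison tables hold log2 fold changes, log2 mean abundance and p-values. The coverage is a signal per base, per the file headers. Their p-values were adjusted here by Benjamini-Hochberg.

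FPKM of listed transcripts were summed per locus. A limma fit (3.58.1, R 4.3.3, with trend) on log2(FPKM + 1) used 5 libraries with 2 residual degrees of freedom, on features reaching 1 FPKM in 2 or more libraries. The p-values were adjusted over all 7039 loci or 13737 transcripts, with a threshold of 0.05. A fold change on this scale understates that of low genes. FPKM give no read counts, so no counting interval was computed; depth was taken from coverage divided by FPKM. The members and gene lists were chosen with earlier results of these data known. Named genes are the members, then in each list those with the smallest p or the largest ratio in control replicate 2, and the 6 nearest profiles; Hmox1, Mt1 and Mki67 were checks of that library. Alternatives were other pseudocounts, filters, heme columns, trend, scaling, a replicate block, levels not divided by transcript length and leaving out each control and induction library.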

Additional observations from a re-analysis of the deposited data

How the results depend on the processing

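None of the 10 loci passed in any setting run, of which those that leave out a library called 0 loci at all, and the lowest adjusted p of a member was 0.235 (induction, without control replicate 1). Of all loci, 3 passed for heme against control, 1 for induction against control and 4 for heme against induction, and of all transcripts 10, 1 and 11. Treating all 6 columns as separate samples raised these to 207 (146 higher), 51 (25 higher) and 210 (148 higher) loci and to 417, 86 and 432 transcripts, a setting that adds the scaled heme column as a sample. Levels not divided by transcript length gave 0, 0 and 0 loci (288, 218 and 255 at an unadjusted p below 0.05 in limma). For induction, a pseudocount of 0.1 gave 0 loci (215), no filter 0 loci (232) and 0 transcripts (759), and no variance trend 27 loci. No filter gave 6 transcripts for heme, and no trend gave 0, 0 and 0 transcripts (959, 898 and 998). Leaving out each control and induction library in turn gave 0 to 0 loci and 0 to 0 transcripts in every comparison in limma, with 192 to 1268 loci and 645 to 1463 transcripts at an unadjusted p below 0.05. The cause was not tested.

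With the replicate number as a block, 4, 2 and 6 loci and 0, 0 and 0 transcripts passed in limma (593, 503 and 579 transcripts at an unadjusted p below 0.05). The block turned the heme difference of Gclm to 0.17 and of no other member. Deviations of same-numbered control and induction libraries had a correlation of -0.051 over 7039 loci. Each group gives only a single difference between its libraries, so this value cannot show whether same-numbered samples were paired.

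Settings that bring in the scaled heme column raise the heme values by construction. With the mean of the heme columns, the heme difference was 0.0023 for Slc7a11, 0.071 for Taldo1, 0.12 for G6pdx and 0.17 for Gstm1. With all 6 columns the heme difference was 0.051 for Taldo1, 0.10 for G6pdx and 0.15 for Gstm1. For Prdx1 it was -0.065 when not divided by length. The short Prdx1 transcript passed with all 6 columns, at 5.40 against control and 5.47 against induction.

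Leaving out each control and induction library in turn moved the heme difference over the range -1.13 to 0.060 for Nqo1, -1.38 to -0.091 for Srxn1, -0.83 to 0.33 for Gclm, -0.76 to 0.012 for Gsr, -0.41 to 0.049 for Slc7a11, -0.083 to 0.65 for Prdx1, -0.77 to -0.019 for Pgd, -0.41 to 0.034 for Taldo1, -0.26 to -0.021 for G6pdx, -0.22 to 0.051 for Gstm1. The induction difference ranged over -0.94 to 0.25 for Nqo1, -1.14 to 0.14 for Srxn1, -0.53 to 0.62 for Gclm, -0.65 to 0.12 for Gsr, -1.10 to -0.027 for Slc7a11, -0.47 to 0.26 for Prdx1, -0.62 to 0.13 for Pgd, -0.33 to 0.12 for Taldo1, -0.21 to 0.026 for G6pdx, -0.096 to 0.19 for Gstm1. For the short Prdx1 transcript the heme difference was 4.15 to 6.11 against control and 4.28 to 6.11 against induction. For the incomplete G6pdx transcript the heme difference was -1.91 to -1.64 against control and -1.75 to -1.59 against induction.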

Other observations

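Some genes of the pathway lists had widely different levels in the induction replicates, and no test was made of this. Mafg, a small MAF partner of NRF2 that shares its locus with Sirt7, was at 21.1 FPKM in induction replicate 1 and 6.90 in replicate 2, with 14.7 and 23.2 in control replicates 1 and 2. Rpe, the ribulose phosphate epimerase of the pentose phosphate pathway, was at 26.2 and 10.2, with 25.3 to 26.4 in the other 3 libraries. Mthfd2l, a mitochondrial folate enzyme, was at 5.42 and 0.147, with 0.208 in the heme library and 5.04 and 5.20 in the controls. Hspa5, a chaperone of the endoplasmic reticulum, was at 360 and 156 FPKM in control replicates 1 and 2 and at 174 and 357 in induction replicates 1 and 2.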
